A study of Mus musculus with 18 samples.

Results

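Of the 45706 genes counted in the deposited table, 8 are described here: Ifnb1, the gene of interferon beta, the interferon receptor genes Ifnar1, Ifnar2, Ifngr1 and Ifngr2, and the suppressor of cytokine signalling (SOCS) family genes Socs1, Socs3 and Cish. They were chosen by symbol, and each symbol matched 1 row of the table. The cells were bone marrow-derived macrophages, grown from C57BL/6 mouse bone marrow in medium with 30% L929-conditioned medium and used on day 7 of culture. The labels also give an age of 12 days, without saying of what. The genotypes were RelA-TA-KI, a knock-in named for Rela, the gene of the NF-κB subunit RelA, and WT. The labels do not describe the RelA-TA-KI allele further. Within each genotype, cells received lipopolysaccharide (LPS, 100 ng/ml), which is sensed by TLR4, for 0.5, 1, 3 or 8 h, or the cytokine TNF (10 ng/ml) for the same times, or were left unstimulated. This gave 9 conditions and 18 libraries of poly(A) RNA, with 1 library for each genotype and condition.

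Interferon beta is made by macrophages when TLR4 signals through the adaptor TRIF to the transcription factor IRF3, which acts on the Ifnb1 promoter together with NF-κB and AP-1. The secreted protein binds a receptor of the chains IFNAR1 and IFNAR2 on the same and neighbouring cells, and JAK1 and TYK2 then phosphorylate STAT proteins, which with IRF9 switch on interferon-stimulated genes. Interferon gamma uses the chains IFNGR1 and IFNGR2. SOCS proteins are induced by these pathways and shut them down: SOCS1 inhibits JAK kinases at interferon receptors, SOCS3 acts above all on gp130 cytokine receptors such as that of IL-6, and CIS, the product of Cish, acts on receptors that use STAT5.

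The 250 bases before the start of a gene were taken from RefSeq (GRCm38.p6) for all 8 genes and searched on both strands for a κB motif (GGG and TTCC with any 3 bases between), bound by NF-κB dimers, an interferon response element (GAAA and GAAA with any 2 bases between), bound by IRF factors, and a gamma-activated sequence (TTCNNNGAA), bound by STAT dimers. Matches are in capitals. The whole stretch is given for Ifnb1 and Socs1, which were higher after LPS than after TNF. The search found a κB motif but no interferon response element in Ifnb1, and interferon response elements but no κB motif in Socs1. Sites that depart from the letters or spacing searched are missed. A short window is given around the matches of Socs3 and Ifngr2, which differed between genotypes.
Ifnb1, minus strand, chr4:88522795-88523044: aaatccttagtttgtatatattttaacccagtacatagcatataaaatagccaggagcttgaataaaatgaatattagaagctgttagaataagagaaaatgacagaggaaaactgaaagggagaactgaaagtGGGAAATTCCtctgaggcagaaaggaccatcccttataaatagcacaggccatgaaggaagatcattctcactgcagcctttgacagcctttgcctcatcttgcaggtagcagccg
Socs1, minus strand, chr16:10785537-10785786: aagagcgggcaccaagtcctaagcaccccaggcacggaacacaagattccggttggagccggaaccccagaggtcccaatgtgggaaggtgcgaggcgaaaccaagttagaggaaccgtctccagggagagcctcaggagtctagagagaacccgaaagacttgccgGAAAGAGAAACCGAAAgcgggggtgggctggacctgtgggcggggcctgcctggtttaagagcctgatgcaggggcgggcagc
Socs3, minus strand, chr11:117969502-117969530: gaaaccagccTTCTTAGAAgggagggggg
Ifngr2, plus strand, chr16:91546974-91547003: ggaacaccggGGAAAGTCCCcacgggccgg

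Counted from the RefSeq start, the κB match of Ifnb1 lay at -116 to -107. Socs1 held 2 interferon response elements that overlap each other, at -83 to -74 and -77 to -68. Socs3 held a gamma-activated sequence at -154 to -146, and Ifngr2 a κB match on the opposite strand at -75 to -66. Ifnar2 held a gamma-activated sequence at -214 to -206, and no motif matched in the windows of Cish, Ifnar1 and Ifngr1. Among 32851 promoter windows of this length, the κB motif occurred in 4.65%, the interferon response element in 2.98% and the gamma-activated sequence in 7.02%. A match is a description of the letters and not evidence of binding.

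Library totals ranged from 4663650 to 6721917 counts, and the RelA-TA-KI library at 3 h of TNF had the lowest. No condition had a replicate, so p-values come from the spread of the matched genotype pairs over the conditions, and since no separate animals or cultures are named, genotype and culture cannot be told apart. Macrophage markers were high throughout, at 8893 to 15245 summed CPM in RelA-TA-KI and 9265 to 13994 in WT libraries, where CPM is the count relative to the library total after TMM scaling. Fibroblast markers, of which 3 of 5 were expressed enough to be tested, summed to 13.6 to 71.3 CPM in RelA-TA-KI and 97.8 to 189 CPM in WT libraries. Neutrophil markers, of which 4 of 5 were expressed enough to be tested, summed to 49.2 to 157 CPM in RelA-TA-KI and 102 to 227 CPM in WT libraries. All 3 fibroblast and 4 neutrophil markers tested were called lower in RelA-TA-KI over the 9 conditions. Of all tested genes 19.7% were called there, 10.3% higher. The part of these cells in the genotype results was not tested. Plasmacytoid dendritic cell markers summed to 77.0 to 405 and 65.7 to 229 CPM in RelA-TA-KI and WT libraries, those of conventional dendritic cells to 0.914 to 5.31 and 3.87 to 8.08 CPM, those of B cells to 0 to 1.77 and 0 to 1.29 CPM, and those of NK and T cells, with 2 of 7 at 0 in every library, to 0 to 0.391 and 0 to 0.645 CPM. Only 2 of the 6 plasmacytoid dendritic cell markers were expressed enough to be tested, and 1 of these was called higher after LPS and after TNF. Their sum thus rests on few genes and moves with stimulation. In bulk RNA, fewer cells of a type and less RNA per cell cannot be told apart.

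Ifnb1 (ENSMUSG00000048806.4, chromosome 4, 88522025 to 88522774, mm10) was nearly silent before stimulation and after TNF, and was induced by LPS in both genotypes. RelA-TA-KI cells held 0 CPM unstimulated and 0.970, 137, 189 and 28.3 CPM at 0.5, 1, 3 and 8 h of LPS. WT cells held 0.124 CPM unstimulated and 0.301, 93.0, 27.9 and 17.7 CPM at the same times. RelA-TA-KI was thus highest at 3 h, while WT was highest at 1 h and at 3 h had 30.0% of that level. After TNF the RelA-TA-KI libraries had 0, 2, 2 and 2 reads and the WT libraries 0, 0, 0 and 1 read at 0.5, 1, 3 and 8 h. Over the 8 libraries of each stimulus, LPS gave 2322 Ifnb1 reads and TNF 7, a depth-adjusted ratio of 397 (95% counting interval 192 to 988). This interval and all others of its kind cover counting error only.

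Against unstimulated cells, Ifnb1 in RelA-TA-KI was at least 254-fold higher at 1 h and at least 352-fold higher at 3 h of LPS, with the 0 reads before stimulation set to a floor of 3 per library. In WT, where 1 read was seen before stimulation, the ratio was 753 at 1 h (95% counting interval 134 to 29783) and 226 at 3 h (39.8 to 8980). The log2 fold change with both genotypes together was 10.27 ± 0.96 at 1 h (SE, adjusted p = 9.1e-06 for the test over the 4 LPS times by edgeR's quasi-likelihood test with Benjamini-Hochberg adjustment, as for every adjusted p given). The step between 0.5 and 1 h passed the test (7.61 ± 0.74, adjusted p = 0.00081), and so did the decline between 3 and 8 h (-1.98 ± 0.49, adjusted p = 0.0072). Each such change rests on 2 libraries per condition, 1 of each genotype. Between 1 and 3 h the genotypes went opposite ways, and their mean change of -0.45 ± 0.41 did not pass (adjusted p = 0.43).

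**Figure D1:**
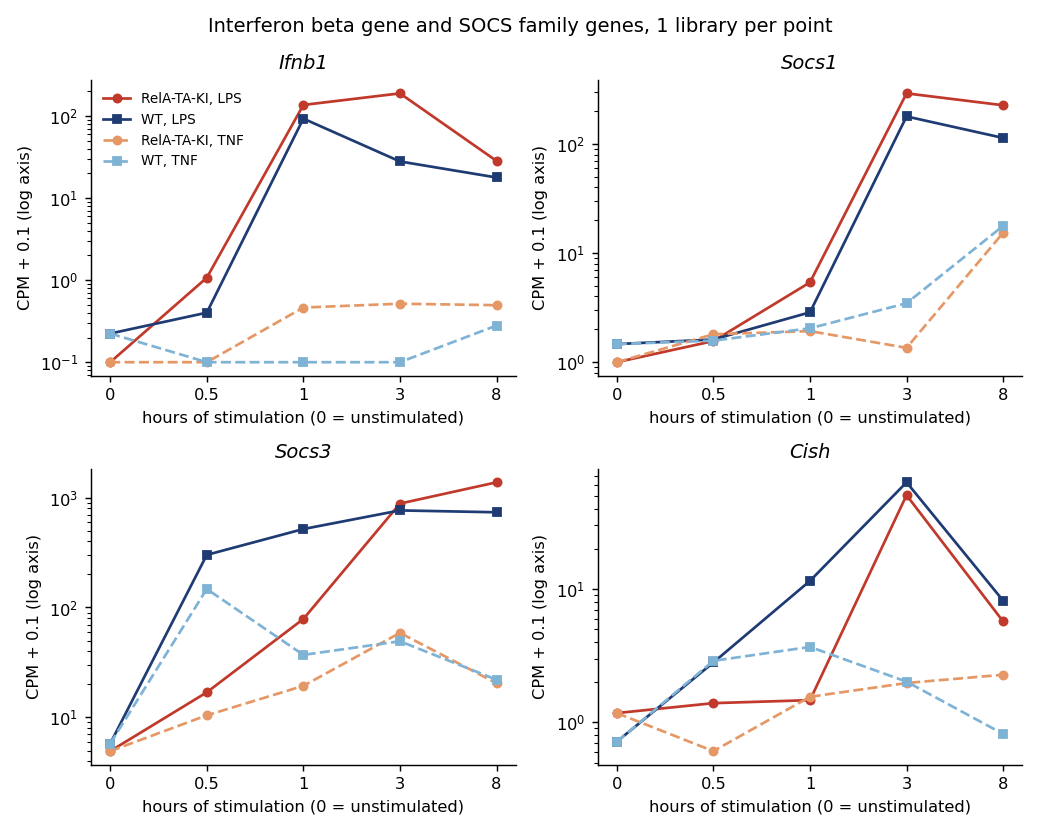
Level of Ifnb1, Socs1, Socs3 and Cish in CPM plus 0.1 on a log axis against hours of stimulation (unevenly spaced times drawn at even steps), with 1 library per point, red for RelA-TA-KI and blue for WT, solid lines for LPS and dashed lines for TNF. After LPS, Ifnb1 was higher in RelA-TA-KI at 3 h (189 CPM, against 27.9 CPM in WT), while Socs3 at 0.5 h was lower (16.8 CPM, against 301 CPM in WT).

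The genotypes differed most in Ifnb1 at 3 h of LPS, where RelA-TA-KI had 6.78 times the WT level (95% counting interval 5.63 to 8.21). The ratio was 1.47 at 1 h (1.31 to 1.65) and 1.60 at 8 h (1.13 to 2.27), and at 0.5 h, with 6 and 2 reads, 3.22 (0.576 to 32.6). RelA-TA-KI was higher in all 4 LPS pairs. Over the 9 conditions the log2 difference, RelA-TA-KI minus WT, was 1.38 ± 0.36 (adjusted p = 0.026). It made Ifnb1 the only member among 8 called in that comparison, in which 19.7% of all tested genes were called and 10.3% called higher in RelA-TA-KI. The call ended with no filter on low counts (adjusted p = 0.086), and without the LPS 3 h pair the difference was 0.65 (adjusted p = 0.019). At 3 and 8 h, LPS and TNF together, the difference was 2.06 ± 0.39 (adjusted p = 0.0105), again the only member called, with 16.5% of all genes called and 9.38% called higher. Without the 3 h LPS pair this late difference was 0.73 and not called (adjusted p = 0.13), nor was it called with DESeq2 (adjusted p = 0.095) or with no filter on low counts (adjusted p = 0.060), so 1 pair of libraries decided it. Within the LPS pairs alone the difference was 1.37 ± 0.40 (adjusted p = 0.080, and 0.016 by DESeq2). It was 0.63 and called without the LPS 3 h pair (adjusted p = 0.049) and 1.99 and called without the LPS 1 h pair (adjusted p = 0.034). At 0.5 and 1 h, LPS and TNF together, the difference of Ifnb1 was 0.61 ± 0.42 (adjusted p = 0.52).

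Of 22 other interferon and interferon receptor genes listed, 16 had 0 reads in every library. Interferon alpha genes were close to absent, with 3 reads of Ifna2, 4 of Ifna4 and 3 of Ifna5 over all 18 libraries. Ifng, the interferon gamma gene, had 1 read in all, and Ifnlr1, a chain of the interferon lambda receptor, had 27. At these totals a low level of the other genes was not detectable. The near-identical interferon alpha genes can share reads, so their counts are uncertain. Il10rb, the chain shared by the IL-10 and interferon lambda receptors, was the only one of the list expressed enough to be tested. It changed by 0.44 ± 0.07 at 8 h of LPS (adjusted p = 1.1e-05), an increase that turned into a decrease when library totals replaced TMM factors (-0.52) and without the LPS 8 h pair (-0.36). After TNF its largest change was -0.27 ± 0.07 (adjusted p = 0.043), a call that ended with no filter, without the TNF 3 h pair (-0.0535) and, at adjusted p-values between 0.052 and 0.088, without each of 5 other pairs.

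All 4 receptor genes were transcribed in every library, and per kilobase of exon the interferon gamma receptor chain Ifngr1 was the highest before stimulation. Unstimulated RelA-TA-KI and WT cells held 49.5 and 42.0 CPM per kilobase of Ifngr1, 28.9 and 32.0 of Ifngr2, 29.7 and 29.4 of Ifnar1, and 21.9 and 18.7 of Ifnar2. Ifngr2 and Ifnar1 changed places between the genotypes. Levels of the inducible genes on the same scale were 1.67 and 1.97 for Socs3, 0.734 and 1.11 for Socs1, 0.167 and 0.0962 for Cish, and 0 and 0.165 for Ifnb1. Ifnar2 (ENSMUSG00000022971.16, 91372783 to 91405589), Ifnar1 (ENSMUSG00000022967.10, 91485238 to 91507441) and Ifngr2 (ENSMUSG00000022965.7, 91547072 to 91565169) lie on the plus strand of chromosome 16 in 1 cluster with Il10rb, and Ifngr1 (ENSMUSG00000020009.10, 19591949 to 19610229) on chromosome 10.

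At 8 h of LPS the order had changed, with Ifngr2 on top at 130 and 146 CPM per kilobase in RelA-TA-KI and WT and Ifngr1 at the bottom at 28.0 and 20.2. In CPM, Ifngr2 reached 429 in RelA-TA-KI and 484 in WT at 8 h of LPS, against 95.6 and 106 in unstimulated cells of the same genotypes, a log2 change of 2.18 ± 0.16 (adjusted p = 3.3e-08). Ifngr1, the ligand-binding partner, stood at 79.6 in RelA-TA-KI and 57.4 in WT at 8 h of LPS, against 141 and 119 unstimulated, and fell by 0.92 ± 0.20 on the log2 scale (adjusted p = 0.00035). It had first been higher at 1 h, at 172 and 212 CPM in RelA-TA-KI and WT, and without the 8 h LPS pair its largest change was an increase of 0.57. The 2 chains of 1 receptor thus moved in opposite directions by 8 h, in both genotypes.

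Both chains of the interferon alpha and beta receptor were higher after 8 h of LPS. Ifnar1 had 428 CPM in RelA-TA-KI and 385 in WT, against 175 and 173 unstimulated (log2 change 1.23 ± 0.09, adjusted p = 8.3e-08). Ifnar2 had 158 and 162 CPM at 8 h of LPS in RelA-TA-KI and WT, against 73.1 and 62.1 unstimulated (1.25 ± 0.12, adjusted p = 9.1e-07). Neither gene was called at 0.5 or 1 h of LPS. At 1 h the genotypes went opposite ways in Ifnar2, at 62.7 CPM in RelA-TA-KI (0.858 of its unstimulated level, 95% counting interval 0.739 to 0.996) and 73.1 CPM in WT (1.18, 1.03 to 1.34). These ratios use TMM factors. With both genotypes together the 1 h change of Ifnar2 was 0.02 ± 0.12 with TMM factors and -0.13 ± 0.13 with library totals. Between 3 and 8 h all of Ifnar1 (0.78 ± 0.09), Ifnar2 (0.74 ± 0.12) and Ifngr2 (1.55 ± 0.15) rose further.

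**Figure D2:**
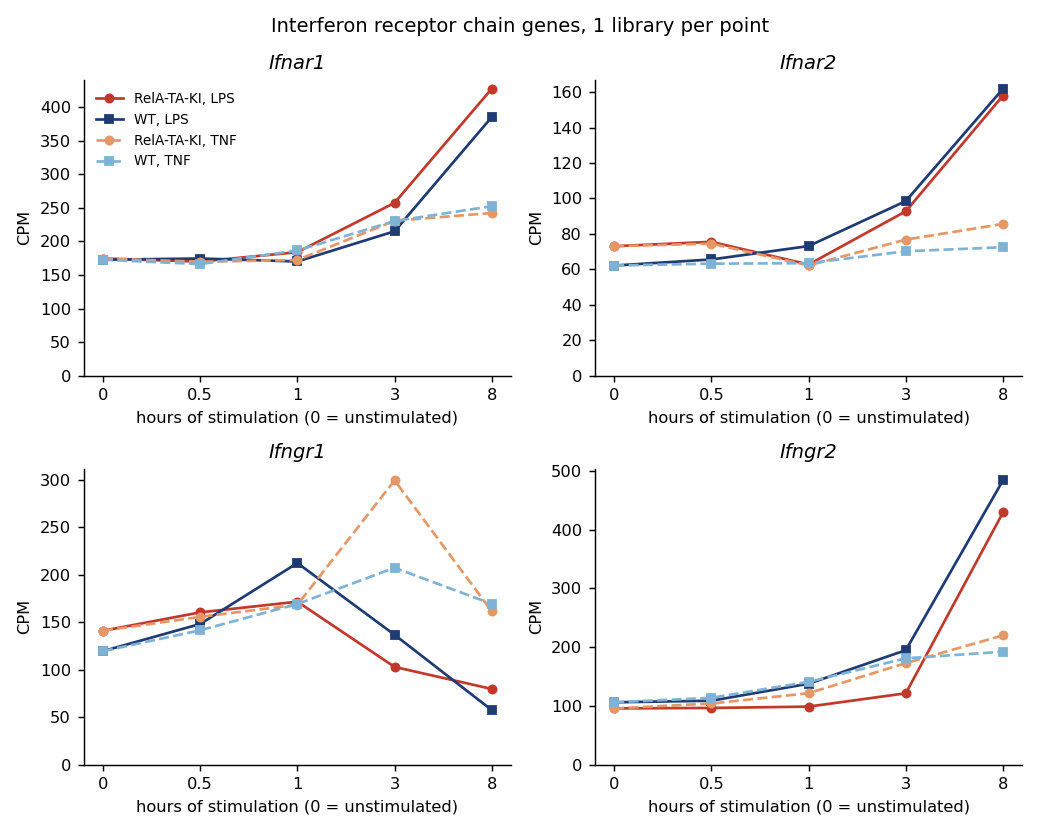
Level of the 4 receptor genes in CPM against hours of stimulation (unevenly spaced times drawn at even steps), with 1 library per point, red for RelA-TA-KI and blue for WT, solid lines for LPS and dashed lines for TNF. After 8 h of LPS Ifngr2 stood at 429 and 484 CPM in RelA-TA-KI and WT while Ifngr1 stood at 79.6 and 57.4 CPM, and the highest Ifngr1 value was 299 CPM in RelA-TA-KI at 3 h of TNF.

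The size of these receptor changes depended on the scaling. TMM factors were 0.568 in RelA-TA-KI and 0.654 in WT at 8 h of LPS, against 1.16 and 1.20 in unstimulated cells, and library totals in their place lowered the median change of all genes at 8 h by 0.95 on the log2 scale. With library totals the 8 h change was 0.27 ± 0.09 for Ifnar1, 0.29 ± 0.13 for Ifnar2, 1.22 ± 0.15 for Ifngr2 and -1.89 ± 0.19 for Ifngr1. The LPS response of Ifnar2 over the 4 times was then no longer called (adjusted p = 0.056). At 3 h, Ifnar1 and Ifnar2 were 0.44 and 0.51 above unstimulated cells with TMM factors and -0.09 and -0.03 with library totals. Ifnb1, Socs1, Socs3 and Cish rose under either scaling.

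**Figure D3:**
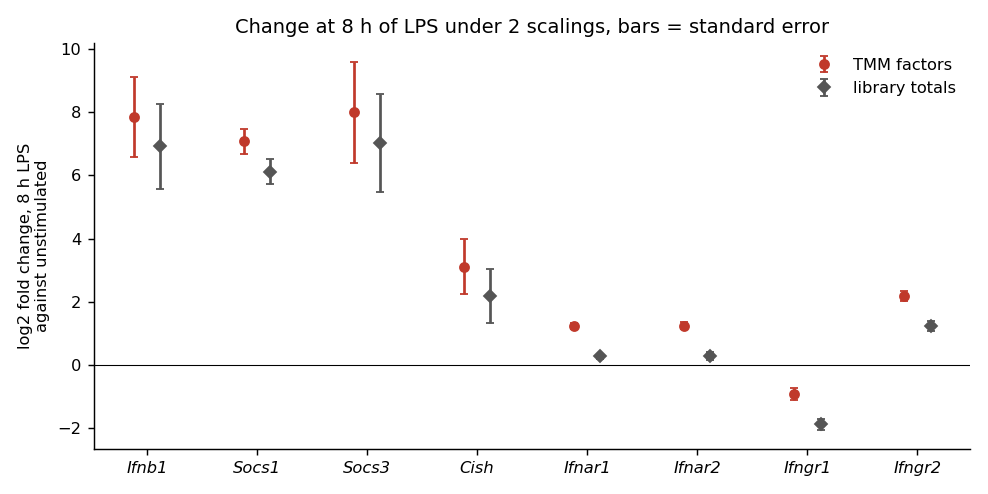
Log2 fold change at 8 h of LPS against unstimulated cells, both genotypes together, for the 8 genes with TMM factors (red circles) and library totals (grey diamonds), with bars for the standard error. Ifnar1 and Ifnar2 changed by 1.23 and 1.25 with TMM factors and by 0.27 and 0.29 with library totals, while Socs1 changed by 7.08 and 6.12.

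TNF moved 3 of the 4 receptor genes, and over all members it raised 4 of 8 and lowered none. Of all tested genes, 30.4% were called in the TNF response and 16.7% were called higher. Ifngr2 reached 220 CPM in RelA-TA-KI and 192 in WT at 8 h of TNF (log2 change 1.04 ± 0.15, adjusted p = 0.00041), and Ifnar1 242 and 252 CPM (0.51 ± 0.09, adjusted p = 0.00068, and 0.26 with library totals). Ifngr1 was highest at 3 h of TNF, at 299 CPM in RelA-TA-KI and 207 in WT (0.96 ± 0.19, adjusted p = 0.013), and was lower again at 8 h, at 161 and 169 CPM. That call rested on the 3 h pair, which holds the shallowest library: without it the largest change was 0.38 and not called (adjusted p = 0.26). For Ifnar2 the largest value was 0.23 ± 0.12 (adjusted p = 0.24), and its direction turned to -0.02 with library totals.

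All 8 members passed the test over the 4 LPS times, 7 higher and only Ifngr1 lower at the time of its largest change. Since 72.2% of all tested genes passed it, 35.8% higher and 36.4% lower, the count is read against that background. By time, 0, 1, 7 and 8 members differed from unstimulated cells at 0.5, 1, 3 and 8 h of LPS, where 0.92%, 6.84%, 47.6% and 67.7% of all genes did. Between neighbouring LPS times, 1 member changed over 0.5 to 1 h (2.33% of all genes), 6 over 1 to 3 h (37.8%) and 6 over 3 to 8 h (51.3%). After TNF, 1 member changed over 1 to 3 h (6.15% of all genes) and 2 over 3 to 8 h (15.7%). Their largest changes ran from -0.92 to 10.27 with a median of 4.18, against -0.20 over all tested genes. Between stimuli, averaged over the 4 matched times, 6 members were higher and 1 lower after LPS than after TNF, in a comparison that called 48.9% of all genes, 23.7% higher and 25.2% lower. At 1 h alone Ifnb1 was the 1 member called, with 1.2% of all genes. Beyond Ifnb1, Socs3 (3.50 ± 0.62), Socs1 (2.69 ± 0.31) and Cish (2.19 ± 0.38) were higher after LPS, and Ifngr1 was lower (-0.52 ± 0.10, adjusted p = 0.00070). Without the TNF 3 h pair the difference of Cish was 1.26 and not called (adjusted p = 0.060). Ifnar2 was higher by 0.39 ± 0.06, and by 0.08 and not called with library totals. Ifnar1 was higher by 0.19 ± 0.05, a difference that was -0.12 and called in the opposite direction with library totals (adjusted p = 0.032). Ifngr2 had a difference of 0.18 that was not called (adjusted p = 0.070). Only 4 members were called once the LPS 8 h pair was left out, and 4 once the TNF 8 h pair was, and in both none of Ifnar1, Ifnar2 and Ifngr1 passed.

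Socs1 (ENSMUSG00000038037.4, chromosome 16, 10783808 to 10785536, minus strand), the JAK inhibitor of interferon receptors, was switched on between 1 and 3 h of LPS. RelA-TA-KI cells had 0.895 CPM unstimulated and 1.46, 5.27, 291 and 226 CPM at 0.5, 1, 3 and 8 h of LPS. WT cells had 1.36 CPM unstimulated and 1.51, 2.76, 179 and 114 CPM at those times. Nearly all of the increase thus came after 1 h, when RelA-TA-KI was at 1.81% and WT at 1.54% of its own maximum. The change at 3 h was 7.56 ± 0.39 (adjusted p = 2.1e-09), and the step between 1 and 3 h was 5.86 ± 0.34 (adjusted p = 1.1e-07). Ifnb1 was already at 72.3% of its maximum in RelA-TA-KI and at its maximum in WT at 1 h.

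After TNF, Socs1 stayed at 1.25 to 1.82 CPM in RelA-TA-KI and 1.47 to 3.36 CPM in WT up to 3 h, and reached 15.2 and 17.6 CPM at 8 h. This late increase passed the test (3.78 ± 0.49, adjusted p = 0.00019) and could not be seen without the TNF 8 h pair, where the largest change was 1.04 (adjusted p = 0.75). The 8 h libraries held 77 Socs1 reads in RelA-TA-KI and 98 in WT, at a time when they held 2 Ifnb1 reads and 1.

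Between genotypes, Socs1 was higher in RelA-TA-KI after LPS, by a log2 difference of 0.81 ± 0.13 over the 4 LPS pairs (adjusted p = 0.0031). The ratio was 1.63 at 3 h (95% counting interval 1.49 to 1.78) and 1.99 at 8 h (1.76 to 2.27). At 1 h it was 1.91 (0.982 to 3.87), and at 0.5 h, with 9 reads in RelA-TA-KI and 10 in WT, 0.966. Of all tested genes 9.99% were called after LPS, 5.47% higher and 4.52% lower, and of the 8 members Socs1 was higher and Ifngr2 lower. After TNF, where 5.32% of all genes were called, the difference of Socs1 was -0.30 ± 0.21 (adjusted p = 0.50) and no member was called. No member was under an unadjusted p of 0.05 there, and DESeq2 and limma-voom called 0 members as well. The difference of the genotype effect between the stimuli was 1.11 ± 0.25 for Socs1, with an unadjusted p of 0.00084 and an adjusted p of 0.89. No gene at all was called in that test by edgeR, and 4 genes were called by DESeq2, none of them a member. Of the 11308 genes tested, 577, 2 of them members, were under an unadjusted p of 0.05 by edgeR. That number is close to the one expected when no gene differs. Over the 9 conditions the difference was 0.48 ± 0.18 and not called (adjusted p = 0.090), and it was called without the TNF 3 h pair (0.56, adjusted p = 0.030), without the TNF 8 h pair (0.61, adjusted p = 0.040) and with limma-voom (0.60, adjusted p = 0.016).

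Socs3 (ENSMUSG00000053113.3, chromosome 11, 117966079 to 117970047, minus strand), the inhibitor of gp130 receptors, was the member in which the genotypes lay furthest apart in pairs with reads in both, at the early times. RelA-TA-KI cells had 4.83 CPM unstimulated and 16.8, 78.5, 882 and 1376 CPM at 0.5, 1, 3 and 8 h of LPS. WT cells had 5.68 CPM unstimulated and 301, 517, 764 and 735 CPM. WT cells were therefore at 39.4% of their maximum within 0.5 h, and RelA-TA-KI cells at 1.22%. After TNF, RelA-TA-KI cells had 10.3, 19.3, 58.7 and 20.4 CPM and WT cells 147, 36.9, 49.2 and 21.9 CPM at the same times. The WT maximum after TNF was at 0.5 h and that of RelA-TA-KI at 3 h.

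The ratio of RelA-TA-KI to WT was 0.0559 at 0.5 h of LPS (95% counting interval 0.0454 to 0.0681) and 0.0703 at 0.5 h of TNF (0.0534 to 0.0911). WT cells had 17.9 and 14.2 times as much Socs3 RNA in these pairs. At 1 h the ratio was 0.152 after LPS (0.136 to 0.169) and 0.522 after TNF (0.412 to 0.658). At 3 h it was 1.15 after LPS (1.10 to 1.21) and 1.19 after TNF (1.01 to 1.41). At 8 h it was 1.87 after LPS (1.78 to 1.97) and 0.928 after TNF (0.707 to 1.22). Unstimulated cells, with 27 reads in RelA-TA-KI and 46 in WT, had a ratio of 0.851 (0.509 to 1.40).

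**Figure D4:**
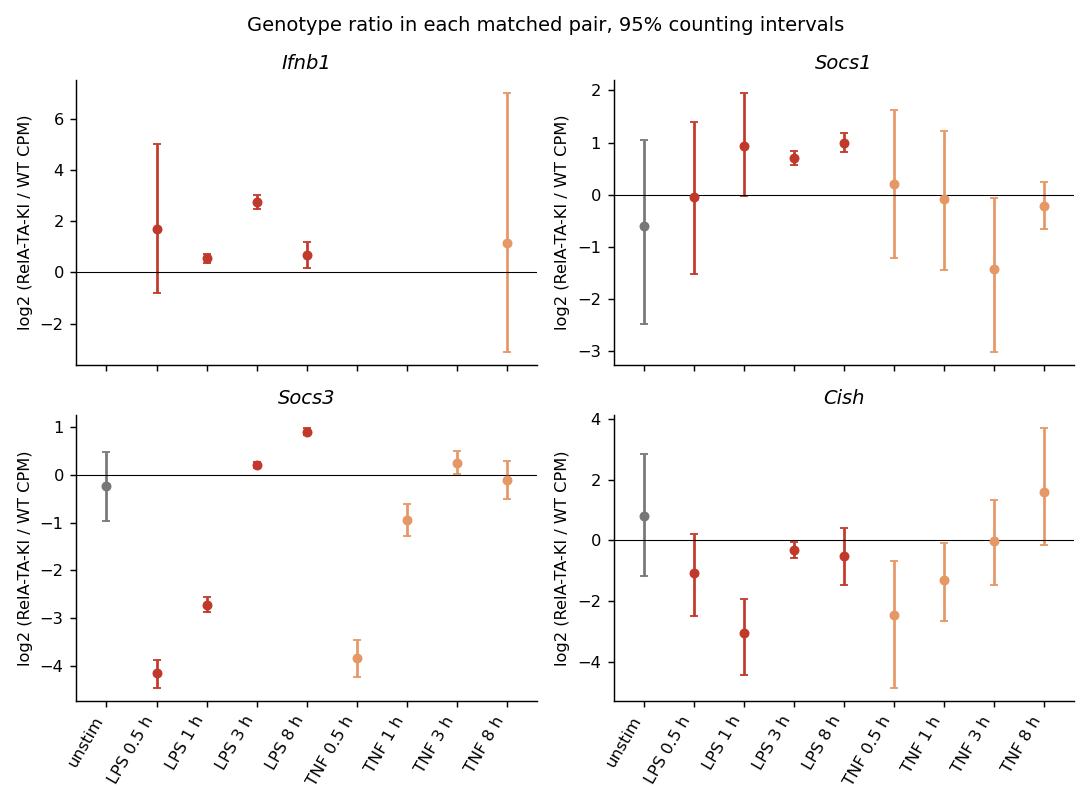
Log2 ratio of RelA-TA-KI to WT CPM in each matched pair for Ifnb1, Socs1, Socs3 and Cish, grey for unstimulated, red for LPS and orange for TNF, with bars for the 95% counting interval and pairs with 0 reads in a library left out. Socs3 was below 0 in the 4 pairs at 0.5 and 1 h and above 0 at 3 and 8 h of LPS, and Ifnb1 was highest at 3 h of LPS, at a ratio of 6.78.

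Over the 4 pairs at 0.5 and 1 h the log2 difference of Socs3, RelA-TA-KI minus WT, was -2.95 ± 0.48 (adjusted p = 0.0099), lower in 4 of 4 pairs. At 3 and 8 h it was 0.37 ± 0.43 (adjusted p = 0.63), higher in 3 of 4 pairs. The change of the genotype effect between late and early times was 3.31 ± 0.64 and was not called by edgeR (adjusted p = 0.12). It was called by DESeq2 (adjusted p = 0.00055) and limma-voom (adjusted p = 0.049), and by edgeR without the TNF 1 h pair (adjusted p = 0.0061). That test called 0.398% of all genes and no member by edgeR. Of the 11308 genes tested, 1339 had unadjusted p-values under 0.05 there, among them Ifnb1, Cish and Socs3. Averaged over the 9 conditions the opposite directions met in a difference of -1.12 ± 0.64 (adjusted p = 0.27). In the time course with both genotypes together, Socs3 was 4.59 ± 1.51 above unstimulated cells at 0.5 h of LPS without being called (adjusted p = 0.51), 5.59 ± 1.52 at 1 h (adjusted p = 0.062) and 8.00 ± 1.60 at 8 h (adjusted p = 0.0014). DESeq2 called it at 0.5 h (adjusted p = 0.013) and at 1 h (adjusted p = 0.00011). Its test over the 4 TNF times, with a largest value of 3.63 ± 1.51 at 0.5 h, did not pass (adjusted p = 0.34). At 3 h of TNF, Socs3 was called by DESeq2 (3.45, adjusted p = 0.028) but not by edgeR (3.55 ± 1.52, adjusted p = 0.17). RelA-TA-KI cells then had 12.1 times their unstimulated level (counting interval 8.17 to 18.7) and WT cells 8.67 times (6.34 to 12.1). At 0.5 h of TNF the ratio was 2.14 in RelA-TA-KI (1.34 to 3.50) and 25.9 in WT (19.3 to 35.6).

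Cish (ENSMUSG00000032578.7, chromosome 9, 107296026 to 107302784, plus strand), the inhibitor of STAT5-using receptors, was per kilobase of exon the least abundant of the 3 feedback genes in each library and peaked at 3 h of LPS. RelA-TA-KI cells had 1.07 CPM unstimulated and 1.29, 1.37, 50.3 and 5.60 CPM at 0.5, 1, 3 and 8 h of LPS. WT cells had 0.618 CPM unstimulated and 2.71, 11.4, 62.8 and 8.06 CPM. It rose by 6.18 ± 0.61 at 3 h (adjusted p = 3.9e-06) and fell between 3 and 8 h by 3.07 ± 0.49 (adjusted p = 0.00026). After TNF it lay between 0.509 and 2.17 CPM in RelA-TA-KI and between 0.719 and 3.58 CPM in WT. WT cells had 4.52 times their unstimulated level at 0.5 h of TNF (counting interval 1.63 to 15.5). The WT ratio was 5.79 at 1 h (2.17 to 19.4) and 1.16 at 8 h (0.231 to 5.41). In RelA-TA-KI the ratio was 0.474 at 0.5 h (0.0767 to 2.22) and 1.35 at 1 h (0.412 to 4.74). The test over the TNF times, which takes both genotypes together, did not pass (adjusted p = 0.66). Counts of Cish were low, from 3 to 295 reads per library. The annotated exons cover 6419 bases, against 1220 for Socs1, and the rank of Cish per kilobase depends on this length. In CPM, Cish was above Socs1 in WT at 1 h of LPS (11.4 against 2.76) and below it at 3 h (62.8 against 179). Of the gene models that overlap the Cish exons, 2 antisense ones held 2 and 1 reads in all.

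As in Socs3, Cish was lower in RelA-TA-KI at the early times. The ratio to WT was 0.120 at 1 h of LPS, from 7 reads in RelA-TA-KI and 62 in WT (95% counting interval 0.0463 to 0.262), and 0.182 at 0.5 h of TNF, from 3 and 19 reads (0.0345 to 0.619). It was 0.477 at 0.5 h of LPS (0.179 to 1.15) and 0.407 at 1 h of TNF (0.158 to 0.936). At 3 h of LPS the ratio was 0.801 (0.669 to 0.957). The log2 difference at 0.5 and 1 h was -2.03 ± 0.36 (adjusted p = 0.0051), lower in 4 of 4 pairs, and without the LPS 1 h pair it was -1.46 and not called (adjusted p = 0.089). At 3 and 8 h it was -0.20 ± 0.25 (adjusted p = 0.64), and 0.03 without the LPS 3 h pair. The change between late and early, 1.83 ± 0.45, was not called (adjusted p = 0.14), but was with no filter on low counts (adjusted p = 0.0041). Socs3 and Cish were the 2 members of 8 called at 0.5 and 1 h, in a comparison that called 6.94% of all genes and 3.69% lower.

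Averaged over conditions, the receptor genes differed little between genotypes. Over the 9 conditions the log2 difference, RelA-TA-KI minus WT, was 0.04 ± 0.04 for Ifnar1, 0.08 ± 0.06 for Ifnar2 and 0.07 ± 0.09 for Ifngr1, none called. With library totals these 3 turned to -0.04, -0.004 and -0.004. Ifngr2 was lower in RelA-TA-KI in 8 of 9 pairs, by -0.20 ± 0.07 (adjusted p = 0.063), and passed with library totals (-0.29, adjusted p = 0.013) and without the TNF 8 h pair (-0.26, adjusted p = 0.020). After LPS the difference of Ifngr2 was -0.37 ± 0.10 (adjusted p = 0.032), lower in 4 of 4 pairs. It stood at 98.7 CPM in RelA-TA-KI and 138 CPM in WT at 1 h, and at 121 and 195 CPM at 3 h. The call ended without the LPS 1 h, the LPS 3 h or the TNF 0.5 h pair (-0.34, -0.27 and -0.37, adjusted p = 0.11, 0.15 and 0.053).

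Most listed genes of the path that leads to interferon beta rose after both stimuli. Of the 16 genes listed for this path, 13 rose after LPS and 11 after TNF, and none fell in either (11 up and 4 down after LPS, and 11 up and 1 down after TNF, with library totals). The list is wider than the steps between TLR4 and IRF3 and includes Tlr4, Cd14, Irf7, Jun and Nfkb1. Of all tested genes, 35.8% rose after LPS and 16.7% after TNF. The median of the list was 1.86 after LPS and 0.95 after TNF, against -0.20 and -0.08 over all tested genes. The factor Irf7 rose by 8.58 ± 0.27 after LPS and 4.99 ± 0.24 after TNF, the kinase Ikbke by 3.55 ± 0.19 and 2.14 ± 0.19, and the adaptor Azi2 by 2.94 ± 0.10 after LPS. Without the TNF 8 h pair the TNF change of Irf7 was 0.64 and not called. Between genotypes over the 9 conditions 4 were higher and 6 lower in RelA-TA-KI (3 and 7 with library totals), with Jun (0.68 ± 0.11, adjusted p = 0.0017) and Tlr4 (0.51 ± 0.12, adjusted p = 0.015) higher and Traf3 (-0.47 ± 0.08) and Nfkb1 (-0.45 ± 0.11) lower. Tlr4 was not called with no filter on low counts (adjusted p = 0.061). The median of the 16 was -0.0308, against -0.0047 over all tested genes, of which 19.7% were called between genotypes and 10.3% called higher.

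Downstream, 10 of 11 JAK, STAT and IRF9 genes rose after LPS and none fell (8 up and 1 down with library totals), and 6 rose after TNF, where 35.8% and 16.7% of all tested genes rose. Their medians were 2.75 and 0.91, against -0.20 and -0.08 over all tested genes. Among them Stat2 rose by 4.83 ± 0.19 and Jak2 by 4.41 ± 0.20 after LPS. Over the 9 conditions Irf9 (0.28 ± 0.06) and Jak3 (0.20 ± 0.06, adjusted p = 0.030) were higher in RelA-TA-KI and Jak2 lower (-0.29 ± 0.09, adjusted p = 0.031), while with library totals none was higher and 1 lower. These 3 of 11 stand beside 19.7% called over all tested genes. The call of Jak3 also ended without any of 5 of the pairs, and that of Jak2 with no filter (adjusted p = 0.070) or without any of 4. All 18 interferon-stimulated genes listed rose after LPS and after TNF and were higher after LPS than after TNF, under both scalings. Their median change was 9.42 after LPS and 5.94 after TNF. The libraries of TNF-treated cells thus held up to 2 Ifnb1 reads each while Ifit2, an antiviral gene, rose by 7.18 ± 0.48 and Ifit1 by 6.93 ± 0.37 at 8 h of TNF.

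Between genotypes 10 of the 18 interferon-stimulated genes were higher in RelA-TA-KI over the 9 conditions and none lower (7 and 1 with library totals), with a median of 0.48 against -0.0047 over all tested genes. Of all tested genes, 19.7% were called in that comparison and 10.3% called higher. Oasl1, which limits translation of IRF7, led with 1.33 ± 0.18 (adjusted p = 0.00052), followed by Ifi44 (0.85 ± 0.18), Ifit3 (0.76 ± 0.19) and Oas1a (0.63 ± 0.08). Ifit3 was not called with no filter (adjusted p = 0.058) or without the LPS 3 h pair (adjusted p = 0.054). At 0.5 and 1 h, where 6.94% of all tested genes were called and 3.69% called lower, 9 were higher and 1 lower in RelA-TA-KI (8 and 1 with library totals). The lower one was the chemokine gene Cxcl10 (-2.51 ± 0.40, adjusted p = 0.0095), which was not called without the LPS 1 h pair (adjusted p = 0.053), and Oasl1 led the others (1.98 ± 0.27), followed by Mx2 (1.76 ± 0.35) and Ifit3 (1.43 ± 0.29). Mx2 was not called without the LPS 1 h or the TNF 0.5 h pair (adjusted p = 0.057 and 0.056), nor Ifit3 with no filter (adjusted p = 0.097) or limma-voom (adjusted p = 0.072). At these times Ifnb1 itself was not called, at 0.61 ± 0.42.

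Of 15 other SOCS genes and negative regulators, 9 rose and 5 fell after LPS, a balance that became 5 and 10 with library totals. Over all tested genes 72.2% were called after LPS, 30.4% after TNF and 19.7% between genotypes. Usp18, which blocks signalling at IFNAR2, rose by 8.02 ± 0.32 after LPS and 4.98 ± 0.30 after TNF, where its largest change without the 8 h pair was 0.82 and not called. Socs7 rose by 2.62 ± 0.15 and the phosphatase gene Ptpn2 by 2.03 ± 0.11 after LPS, while Socs6 fell after TNF (-0.85 ± 0.12). After TNF 3 rose and 2 fell (3 and 3 with library totals). In RelA-TA-KI over the 9 conditions 3 were higher, among them Usp18 (0.49 ± 0.14, adjusted p = 0.027), and the phosphatase gene Ptpn1 was lower (-0.32 ± 0.05). With library totals 0 were higher and 2 lower, and Usp18 was not called with no filter (adjusted p = 0.079) or without the LPS 3 h or 8 h pair either (adjusted p = 0.071 and 0.074). At 0.5 and 1 h Usp18 was the only one called higher (1.10 ± 0.20, adjusted p = 0.0066), whereas Socs3 and Cish were lower in the same libraries.

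Among 14 tested genes of cytokines and receptors that act through STAT3 and STAT5, 12 rose and 1 fell after LPS (11 and 2 with library totals), and 5 rose and 1 fell after TNF. In RelA-TA-KI 4 were higher and 4 lower over the 9 conditions (3 and 4 with library totals). The shares called over all tested genes were 72.2% after LPS, 30.4% after TNF and 19.7% between genotypes. Lif, a gp130 cytokine, was lower (-1.83 ± 0.27, adjusted p = 0.00058), while its relative Osm (0.72 ± 0.18, adjusted p = 0.015) and the shared receptor chain Il6st, which encodes gp130 (0.74 ± 0.14, adjusted p = 0.0038), were higher. Osm was not called with no filter on low counts (adjusted p = 0.060). At 0.5 and 1 h, when Socs3 was lower in RelA-TA-KI, Lif (-2.16 ± 0.34) and the IL-10 receptor gene Il10ra (-0.67 ± 0.10) were lower too, and Osm was higher (1.10 ± 0.14).

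The genes most like each inducible member over the 18 libraries were found by Pearson's correlation of log2 CPM with 10521 genes. The libraries share the stimulation, so these values describe the pattern and carry no test. Otud1 was most like Ifnb1 (r = 0.914), followed by Plaur (0.896) and the chemokine gene Ccl4 (0.891). Socs1 was matched more closely, by the RNA sensor gene Ifih1 (0.992), Sp140 (0.979) and Trim26 (0.978). Socs3 was most like the NF-κB feedback gene Tnfaip3 (0.967), the microRNA host gene Mir155hg (0.967) and Srgn (0.927). Cish was most like the co-stimulatory ligand gene Cd80 (0.921), Dcun1d5 (0.902) and the NF-κB subunit gene Rel (0.900).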

How the data were processed

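Whole-number gene counts of 18 libraries were deposited by the authors without normalization, in mm10 coordinates. The labels' protocols give a stranded poly(A) RNA kit and single-end reads of 50 bases. Per the submitters' processing notes, reads were handled with cutadapt 1.12, STAR, featureCounts 1.5.0 and DESeq2. Neither the strand setting nor the annotation release is stated there, which leaves overlapping and antisense genes uncertain.

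The counts went into edgeR 4.0.16 (R 4.3.3) with TMM factors, filterByExpr with a minimum count of 10 and total of 15, a robust quasi-likelihood fit and Benjamini-Hochberg adjustment at 0.05 over the 11308 genes kept. The model held condition and genotype, with 8 residual degrees of freedom, or 6 where the genotype effect was split by stimulus or time. The common biological coefficient of variation was 0.111. A response was tested over 4 times at once, and its value is that at the time of the largest change. Standard errors were worked back from the F statistic and are approximate. Log2 CPM used a prior count of 0.5. Counting intervals are exact, at 95%. The edgeR fit was run on simulated counts with known genotype differences, and only the genotype effect over the 9 conditions was scored there. The other comparisons and the other tools were not scored on simulated data.

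Members and gene lists were chosen with earlier results of these data known. All 8 members are named. Of each list and comparison, the rule takes up to 4 called genes with the largest change at a mean log2 CPM of 1 or more. The text gives values for part of these, picked with their values known, and the alternatives were run on all of them. The genotype effects at 0.5 and 1 h and at 3 and 8 h were added after the data were seen, as parts of the planned late against early test. Alternatives were limma-voom (limma 3.58.1), DESeq2 1.42.0, DESeq2 size factors, library totals, no filter, keeping genes with 1 CPM in 9 libraries, and each condition left out with both its libraries.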

Additional observations from a re-analysis of the deposited data

How the results depend on the processing

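Library totals, when used instead of TMM factors, turned the direction of 11 of the values followed through the alternatives, which leave out most uncalled ones, and of 26 of all 208 member values from single contrasts. Most of these were uncalled receptor values near 0, but Ifnar1 between stimuli at 3 h became -0.37 and called (adjusted p = 0.0035). Against unstimulated cells, Ifnar1 became -0.092 and Ifnar2 -0.0265 at 3 h of LPS, Il10rb -0.517 after LPS and Ifnar2 -0.0233 after TNF. Between stimuli over 4 times, Ifnar1 became -0.116, Ifngr2 -0.128 and Il10rb -0.205, and Ifnar2 became -0.0204 at 3 h. The genotype effect over 9 conditions became -0.0401 for Ifnar1, -0.0043 for Ifnar2 and -0.0038 for Ifngr1. This scaling moves the median of all genes, by -0.95 in the LPS response. For members and list genes together, a call was lost 32 times with library totals, 24 with no filter, 7 with limma-voom, 6 with DESeq2, 2 with DESeq2 size factors, 1 with the 1 CPM filter and 167 times over the pairs left out. No direction turned with DESeq2, limma-voom, DESeq2 size factors or either filter.

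With 1 pair of libraries left out at a time, 13 values turned. The LPS response ranged from -0.960 to 0.572 for Ifngr1 and from -0.357 to 0.437 for Il10rb, and LPS against TNF from -0.144 to 0.288 for Ifngr2 and from -0.0124 to 0.151 for Il10rb, all turning without an 8 h pair. The TNF response ranged from -0.765 to 1.48 for Osm, turning without the TNF 0.5 h pair, and from -0.438 to 3.01 for Stat2, turning without the TNF 8 h pair. Uncalled genotype effects ranged from -0.105 to 0.0301 for Ifnar2 and from -0.192 to 0.0691 for Ifngr1 after LPS (0.0416 without the LPS 1 h pair), from -0.135 to 0.0092 for Ifngr2 after TNF, and from -0.330 to 0.0324 for Cish at 3 and 8 h.

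Counts of members called moved as follows, and beyond the construction of each setting the cause was not tested. With DESeq2 the count was 1 at 0.5 h of LPS (0 by edgeR), 4 at 1 h (1), 0 for the genotype effect at 3 and 8 h (1) and 1 for late minus early (0). With limma-voom it was 0 for LPS against TNF at 1 h (1), 2 for the genotype effect over 9 conditions (1), 2 at 3 and 8 h (1) and 1 for late minus early (0). With no filter it was 0 for TNF 3 minus 1 h (1), 1 for TNF 8 minus 3 h (2), 0 for the genotype effect over 9 conditions (1), 0 at 3 and 8 h (1) and 1 for late minus early (0). With library totals it was 3 for LPS 3 minus 1 h (6), 0 for TNF 3 minus 1 h (1) and 2 for the genotype effect over 9 conditions (1). The filter of 1 CPM in 9 libraries removed Ifnb1, which left 0 at 1 h of LPS, for LPS 1 minus 0.5 h, for LPS against TNF at 1 h, and for the genotype effect over 9 conditions and at 3 and 8 h (1 each by edgeR). Over the pairs left out, the count ranged from 1 to 2 at 1 h of LPS, 0 to 1 for TNF 3 minus 1 h, 1 to 2 for TNF 8 minus 3 h, 4 to 8 for LPS against TNF over 4 times, 1 to 3 for the genotype effect over 9 conditions, 1 to 2 after LPS, 1 to 3 at 0.5 and 1 h, 0 to 2 at 3 and 8 h and 0 to 1 for late minus early. The replicate numbers pair no samples, with 1 library for each genotype and condition, so no pairing beyond the matched conditions was possible. The matched conditions are already a term of the model.

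Over all genes, late minus early called 45 by edgeR, 124 by DESeq2, 147 with no filter and 29 with library totals. Over the pairs left out it called 13 to 76. The genotype effect at 0.5 and 1 h called 785, against 368 to 454 without any 1 of its 4 pairs, and after TNF 602, against 285 to 912. The genotype effect of LPS minus TNF called 0, against 4 by DESeq2, 3 with no filter and 1 without the LPS 0.5 h pair. TNF 3 minus 1 h called 696, against 1048 without the LPS 8 h pair. LPS against TNF at 0.5 h called 5, against 18 by DESeq2 and 11 with no filter. LPS 3 minus 1 h called 4270, against 6552 with library totals, and LPS against TNF at 3 h 3539 against 6645. The TNF response called 3432, against 1100 without the TNF 8 h pair, LPS against TNF 5530, against 2489 and 1933 without the LPS or the TNF 8 h pair, and the genotype effect after LPS 1130, against 581 without the LPS 3 h pair. TNF at 0.5 h, 1 h and 1 minus 0.5 h called 43, 121 and 36, against 67, 190 and 72 by DESeq2. Higher genes made up 49.6% of calls in the LPS response and 20.1% with library totals, 55.2% and 31.7% after TNF, 48.5% and 14.2% between stimuli, and for the genotype effect 52.1% and 28.0% over 9 conditions, 54.8% and 39.8% after LPS, 45.3% and 29.1% after TNF, and 56.8% and 24.2% at 3 and 8 h. Depth limits Ifnb1 outside LPS and Cish outside 3 h of LPS, where a few reads carry each value.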
